A study of Rattus norvegicus with 48 samples.

Results

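The conjugate and drug exporters described here are 5 membrane pumps of the ATP-binding cassette family in rat liver, Abcc3, Abcb1b, Abcc2, Abcb11 and Abcb4. They were found by their symbols in the probe annotation of the array, and for a gene with several probes the brightest one was used. Of the 5 listed genes, 3 had a probe and all 3 could be tested, among 8223 named genes tested of 13337 with a probe. Abcc3 and Abcb1b had 1 probe each. Abcb4 had 2, of which the dimmer was above background on 3 of 48 arrays (mean deposited intensity 123, against 737 for the probe used) and is not described further. No probe carried the symbol or the gene ID of Abcc2 or Abcb11, which are not analysed here, so the canalicular side rests on Abcb1b and Abcb4.

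Hepatocytes take up bile acids, drugs and other organic anions from blood across the sinusoidal membrane and pump them into bile across the canalicular membrane. Abcc3 (MRP3) sits in the sinusoidal or basolateral membrane and returns glucuronides and bile acid conjugates to blood, and it is low in normal hepatocytes and higher in bile duct cells and in cholestasis. Abcb1b is 1 of the rodent P-glycoproteins (MDR1), which pump many lipophilic drugs out across the canalicular membrane, and it is known to rise in rat liver carcinogenesis. Abcb4 (MDR2 in rodents) flips phosphatidylcholine into bile, Abcb11 exports bile salts and Abcc2 exports conjugates at the same membrane.

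The 48 samples, all liver of male Fischer rats, were hybridised to 1-colour bead arrays, where the brightness of a probe reports how much labelled RNA it bound. They fall into KRT-19-positive preneoplastic nodules (10), such nodules after 2 d (10) or 4 d (10) of the thyroid hormone T3, KRT-19-negative preneoplastic nodules (10) and control liver (8). Nodules called untreated below are those whose titles name no T3. KRT-19, also called CK-19, is a keratin found in bile ducts and hepatic progenitors, and preneoplastic nodules are foci of altered liver cells that can precede carcinoma. The labels give neither the T3 dose, the age of the rats nor how nodules were induced. Nothing in them ties each sample to an animal of its own, so p-values here reflect how far these samples spread, part of which may be technical.

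Between 8380 and 10695 of 22523 probes were above background per array. The number was 9424 to 10695 in KRT-19-positive nodules, 9226 to 10259 after 2 d and 8838 to 10379 after 4 d of T3, 8380 to 10417 in KRT-19-negative nodules and 8744 to 9682 in control liver. Levels below are normalised log2 intensities after background correction, so that a difference of 1 is a change of 2-fold. They are compared within a probe only, since probes of different genes are not on a common scale. Krt19 RNA followed the labels, at 11.03 to 12.73 in KRT-19-positive nodules, 6.06 to 10.09 in KRT-19-negative nodules and 5.67 to 7.94 in control liver. The ranges show Krt19 RNA well above control in part of the nodules labelled negative. Summed over 7 hepatocyte markers, linear levels were 102142 to 165027 in KRT-19-positive nodules, 130343 to 163510 and 137261 to 152838 after 2 d and 4 d of T3, 149699 to 172246 in KRT-19-negative nodules and 119645 to 167446 in control liver. This sum is led by probes such as those of Alb and Ttr, whose levels are near the highest of all (15.27), so it says little about smaller changes of other hepatocyte genes.

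Abcb1b and Abcb4 are direct neighbours in the genome, and their promoters are shown because the first moved by over 5 log2 in these samples while the second stayed within a narrow range. Sequences are from RefSeq on build GRCr8, where 3 of the 5 genes were matched (Abcc2 is the third), and run from 250 bases before to 50 bases after the annotated start. The Abcb1b window is chr4:26279980-26280279 and the Abcb4 window chr4:26164096-26164395, both on the minus strand and printed 5′ to 3′ in the direction of the gene. Capitals mark matches to the motifs named after the sequences, on either strand.
Abcb1b: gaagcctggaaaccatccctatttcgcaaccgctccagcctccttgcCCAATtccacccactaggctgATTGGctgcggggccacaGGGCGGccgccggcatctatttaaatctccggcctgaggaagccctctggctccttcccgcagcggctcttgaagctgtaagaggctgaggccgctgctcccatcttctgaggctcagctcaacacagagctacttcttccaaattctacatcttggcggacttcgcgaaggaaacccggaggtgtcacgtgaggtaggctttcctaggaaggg
Abcb4: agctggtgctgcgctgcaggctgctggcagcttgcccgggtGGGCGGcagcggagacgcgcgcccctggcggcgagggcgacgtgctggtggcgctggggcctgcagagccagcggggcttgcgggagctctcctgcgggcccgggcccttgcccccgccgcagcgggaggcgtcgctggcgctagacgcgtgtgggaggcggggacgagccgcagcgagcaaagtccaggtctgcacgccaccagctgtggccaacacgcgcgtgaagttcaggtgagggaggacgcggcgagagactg

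Searched on both strands were CCAAT (a box found in many promoters), GGGCGG (the GC box), TGACNNNGC (core of the antioxidant response element), TGANTCA (AP-1 site) and AGGTCA (nuclear receptor half-site). No match of 1 motif overlapped a match of another. The Abcb1b window held CCAAT at bases -203 to -199, its reverse complement ATTGG at bases -182 to -178, and GGGCGG at bases -164 to -159, counted from the start at 0. The Abcb4 window held GGGCGG at bases -209 to -204. Among 33469 promoters of this length, 37.5% held CCAAT and 33.1% held GGGCGG. Neither window held TGACNNNGC, TGANTCA or AGGTCA, which 12.1%, 7.33% and 16.2% of the promoters held. G and C made up 58.3% of the Abcb1b window and 74.3% of the Abcb4 window. A match describes the letters in the window and shows no binding.

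Abcc3, the sinusoidal exporter, was high on every KRT-19-positive array, far lower on most arrays after 4 d of T3, and lowest in control liver. Its lowest, median and highest levels were 11.59, 11.87 and 12.31 in KRT-19-positive nodules, 11.11, 11.55 and 11.82 after 2 d of T3, 6.53, 7.44 and 11.03 after 4 d of T3, 7.39, 11.15 and 11.64 in KRT-19-negative nodules, and 5.91, 6.36 and 6.62 in control liver. In order of mean level, KRT-19-positive nodules came first (11.91 ± 0.25, SD, n = 10), followed by T3 2 d (11.50 ± 0.25), KRT-19-negative nodules (10.78 ± 1.22), T3 4 d (8.37 ± 1.90) and control liver (6.30 ± 0.27, n = 8). Each group in this order overlapped the next. The probe was above background on all 48 arrays, and its deposited intensity before any correction was 3002 to 7525 in KRT-19-positive nodules and 137 to 276 in control liver.

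Abcb1b, the drug pump, was likewise high in KRT-19-positive nodules but spread widely over KRT-19-negative ones. Its lowest, median and highest levels were 11.75, 12.02 and 12.57 in KRT-19-positive nodules, 11.12, 12.12 and 13.02 after 2 d of T3, 7.92, 8.67 and 11.77 after 4 d of T3, 4.77, 8.92 and 11.35 in KRT-19-negative nodules, and 5.48, 6.37 and 7.12 in control liver. Means were 12.06 ± 0.26 in KRT-19-positive nodules, 12.06 ± 0.60 and 9.45 ± 1.48 after 2 d and 4 d of T3, 8.46 ± 2.09 in KRT-19-negative nodules (SD, n = 10 each) and 6.36 ± 0.58 in control liver (n = 8). KRT-19-negative nodules thus spanned more than 6 log2 units, with the lowest array below every control and the highest below every KRT-19-positive array. The lowest, array 1, was not above background (detection p-value 0.485), so its distance from the others depends on the background correction. In the authors' values this array was at 125 and the highest, array 9, at 2718. The probe was above background on 9 of 10 KRT-19-negative and 7 of 8 control arrays and on every array of the other groups. Whether this probe separates Abcb1b from its close relatives Abcb1a and Abcb4 was not tested, since probe sequences are not used here.

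Abcb4, the phospholipid flippase, lay within a narrow band. Its means were 9.06 ± 0.45 in KRT-19-positive nodules, 9.26 ± 0.36 and 9.69 ± 0.33 after 2 d and 4 d of T3, 9.05 ± 0.27 in KRT-19-negative nodules (SD, n = 10 each) and 9.22 ± 0.24 in control liver (n = 8). The lowest of all values was 8.37 in a KRT-19-positive nodule and the highest 10.47 after 4 d of T3, and all groups overlapped.

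**Figure D1:**
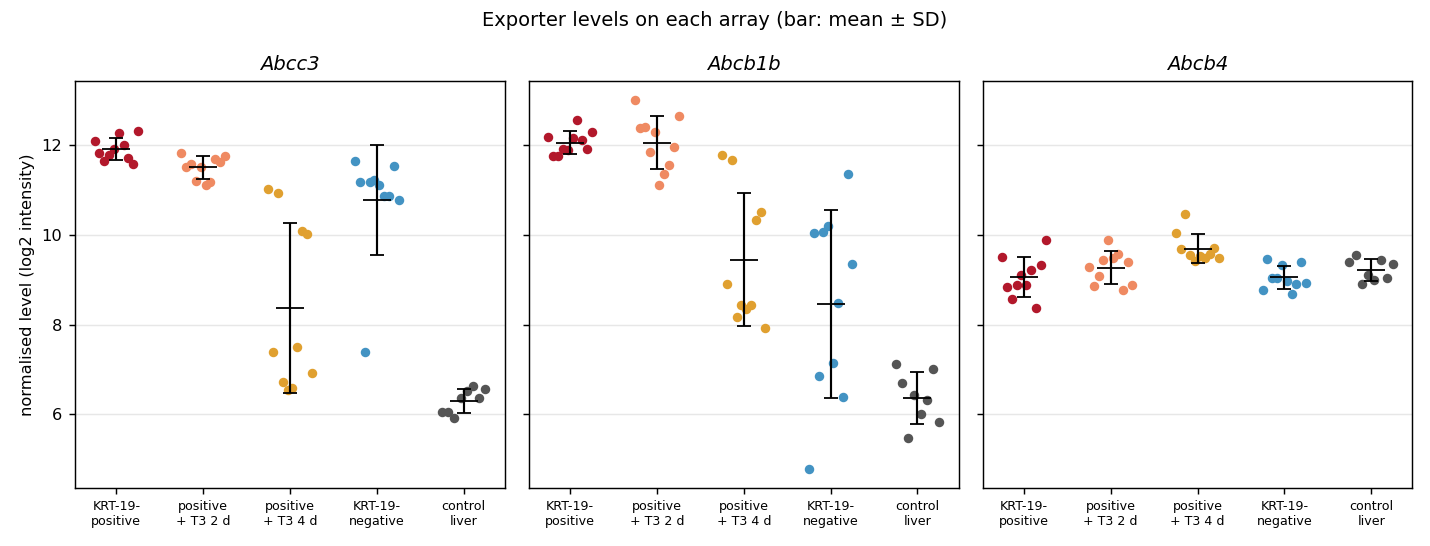
Normalised level (log2 intensity) of Abcc3, Abcb1b and Abcb4 on each of 48 arrays, by group, with black bars for mean ± SD. Abcc3 and Abcb1b are high and tight in KRT-19-positive nodules and low in control liver. After 2 d of T3 both are high, with Abcb1b more spread (11.12 to 13.02), and after 4 d both are spread. Abcb4 stays between 8.37 and 10.47.

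KRT-19-positive nodules were compared with control liver to see which exporters differ in these lesions. Abcc3 was 48.9-fold higher (log2 difference 5.61 ± 0.46, SE, limma adjusted p = 1.17e-14) and Abcb1b 51.9-fold higher (5.70 ± 0.54, adjusted p = 8.55e-13), with no overlap between the 10 nodules and the 8 controls for either gene. Only 10 of 11558 tested features had a larger rise than Abcc3, and 9 had a larger rise than Abcb1b. Abcb4 did not pass the test (-0.16, 95% interval -0.47 to 0.15, adjusted p = 0.416). So 2 of 3 exporters were called, both higher, where 48.7% of all features were called and 24.8% were called higher, and the groups did not overlap for 15.9% of features. The sizes depended on the background correction, since without it the differences were 4.40 for Abcc3 and 4.50 for Abcb1b.

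Markers of other cell types also moved in this comparison. Of 14 cholangiocyte markers, 8 were tested, of which 3 were higher and 2 lower. Krt19, the gene of the label, is 1 of the 8 and is counted here and in the comparisons below. The linear levels of these markers without Krt19 summed to 2696 to 4354 in KRT-19-positive nodules and 1310 to 2211 in control liver, and Tff3, a mucosal secreted peptide among them, was above background on 0 of 8 control arrays. Of 11 stellate cell and fibroblast markers, 6 were tested, of which 5 were higher and 1 lower, with sums of 5875 to 12039 in KRT-19-positive nodules and 1764 to 2481 in control liver. Macrophage markers went both ways (3 higher and 3 lower of 7 tested), and of 3 red blood cell markers 2 were lower and 1 higher, with sums of 5291 to 13974 in KRT-19-positive nodules and 17543 to 43703 in control liver. The part of these cells in the exporter differences was not tested. In bulk tissue such as this, fewer cells of a type and less RNA per cell cannot be told apart.

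In KRT-19-negative nodules against control liver, Abcc3 and Abcb1b parted. Abcc3 was 22.2-fold higher (4.47 ± 0.46, limma adjusted p = 1.25e-10), with no overlap of the groups, and 4 features had a larger rise. Abcb1b was 4.29-fold higher on average (2.10 ± 0.54, adjusted p = 0.00307), in 9 of 10 nodules above the control mean, and the groups overlapped. Without background correction these differences were 3.36 for Abcc3 and 1.49 for Abcb1b. Abcb4 did not pass (-0.17, 95% interval -0.48 to 0.15, adjusted p = 0.493). Thus 2 of 3 exporters were called higher, where 21.9% of all features were called, 11.2% were called higher and 2.17% did not overlap. Among stellate cell and fibroblast markers 4 of 6 tested were higher and none lower, and their sum was 2498 to 6629 in KRT-19-negative nodules and 1764 to 2481 in control liver. Cholangiocyte markers had 3 higher and 1 lower of 8 tested. Macrophage markers had 4 of 7 lower, with sums of 5550 to 10492 in KRT-19-negative nodules and 8124 to 15154 in control liver, and red blood cell markers 2 of 3 lower. Their part was not tested.

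KRT-19-positive against KRT-19-negative nodules asks what goes with the KRT-19 label among nodules. Abcb1b was 12.1-fold higher (3.60 ± 0.51, limma adjusted p = 1.86e-07), without overlap of the 10 and 10 arrays, and 4 of all tested features had a larger rise. Krt19 itself was 10.9-fold higher (3.45 ± 0.38). Abcc3 was 2.20-fold higher (1.14 ± 0.44, adjusted p = 0.039), but its ranges overlapped and the call did not hold without KRT-19-negative array 3 (0.76, adjusted p = 0.140) or with detected probes per array as a covariate (0.42, adjusted p = 0.570). Leaving out any 1 of KRT-19-positive arrays 1, 5, 6, 7 and 10 also ended that call, at adjusted p-values of 0.0507 to 0.0591. Abcb4 did not pass (0.01, 95% interval -0.29 to 0.30, adjusted p = 0.978). Here 2 of 3 exporters were called higher, where 32.0% of all features were called, 17.3% were called higher and 2.85% did not overlap. In the same comparison 5 of 6 stellate cell and fibroblast markers were higher and 0 lower, 3 of 8 cholangiocyte markers were higher and 1 lower, and 5 of 7 macrophage markers were higher and 1 lower. Krt19, by which these nodules are labelled, is 1 of the 3 cholangiocyte markers that were higher. Lymphocyte markers had 2 of 5 higher, hepatocyte markers 3 of 7 lower, and red blood cell markers 2 of 3 lower and 1 higher. The part of these cells was not tested.

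**Figure D2:**
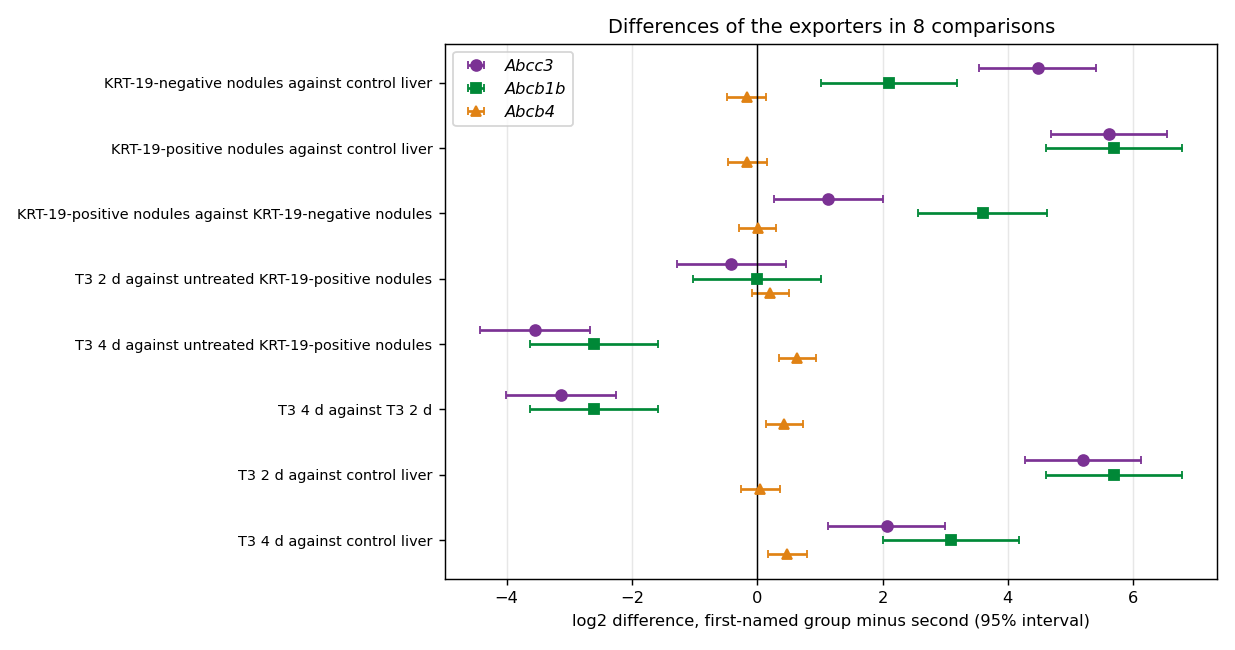
Log2 difference of Abcc3, Abcb1b and Abcb4 in 8 comparisons, first-named group minus second, with bars for the 95% interval. Abcb4 lies within 0.64 of 0 throughout, and Abcc3 and Abcb1b lie farthest apart in both comparisons that involve KRT-19-negative nodules.

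Within the KRT-19-negative nodules, Abcb1b followed Krt19 array by array. On arrays 1 and 8, where Krt19 was at 6.06 and 6.10, Abcb1b was at 4.77 and 6.38, the first of these not above background. On arrays 2 and 9, where Krt19 was at 9.98 and 10.09, Abcb1b was at 10.03 and 11.35. Across the 10 arrays Pearson's r was 0.96 (permutation p = 2e-05, adjusted 0.00072) and Spearman's rho 0.93 (permutation p = 0.00035, adjusted 0.0126), adjusted over 36 relations in 4 groups. Without arrays 1 and 8, the farthest from the median in Krt19, r was 0.94, and with arrays of earlier and of later title numbers each centred it was 0.98. The earlier and later arrays number 5 each, too few for a correlation within either.

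For Abcc3 this relation did not pass on the same arrays. Abcc3 was at 11.64 on array 1 and 10.87 on array 8, where Krt19 was lowest, and its correlation with Krt19 was r = 0.20 (permutation p = 0.678, adjusted 0.886) and rho = 0.22 (permutation p = 0.538, adjusted 0.725). Without arrays 1 and 8 its r was 0.60, and no test compared the correlations of Abcb1b and Abcc3. Of the 36 relations of the exporters with each other, Krt19 and Gstp1, only that of Abcb1b with Krt19 in KRT-19-negative nodules passed the adjustment, and 7 had an unadjusted Pearson p under 0.05. Abcb4 with Krt19 in KRT-19-negative nodules was among these 7 (r = 0.69, adjusted permutation p = 0.174). With earlier and later title numbers each centred, 3 more passed by Pearson's r. These were Abcc3 with Gstp1 in KRT-19-negative nodules (r = 0.97, adjusted permutation p = 0.0063), and, after 2 d of T3, Abcc3 with Abcb1b (r = 0.87, adjusted permutation p = 0.009) and with Gstp1 (r = 0.83, adjusted permutation p = 0.0392). Centred values were permuted over all arrays of a group and not within earlier or later ones, so these p-values do not allow for the centring. The value in KRT-19-negative nodules includes array 3, described below. The relations were chosen after the data were seen. The cholangiocyte markers without Krt19 summed to 1493 on array 8 and 2678 on array 2, the lowest and the highest of the 10 arrays. The sum of stellate cell and fibroblast markers was lowest on array 1 (2498) and highest on array 2 (6629). The part of these cells in the relation was not tested.

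**Figure D3:**
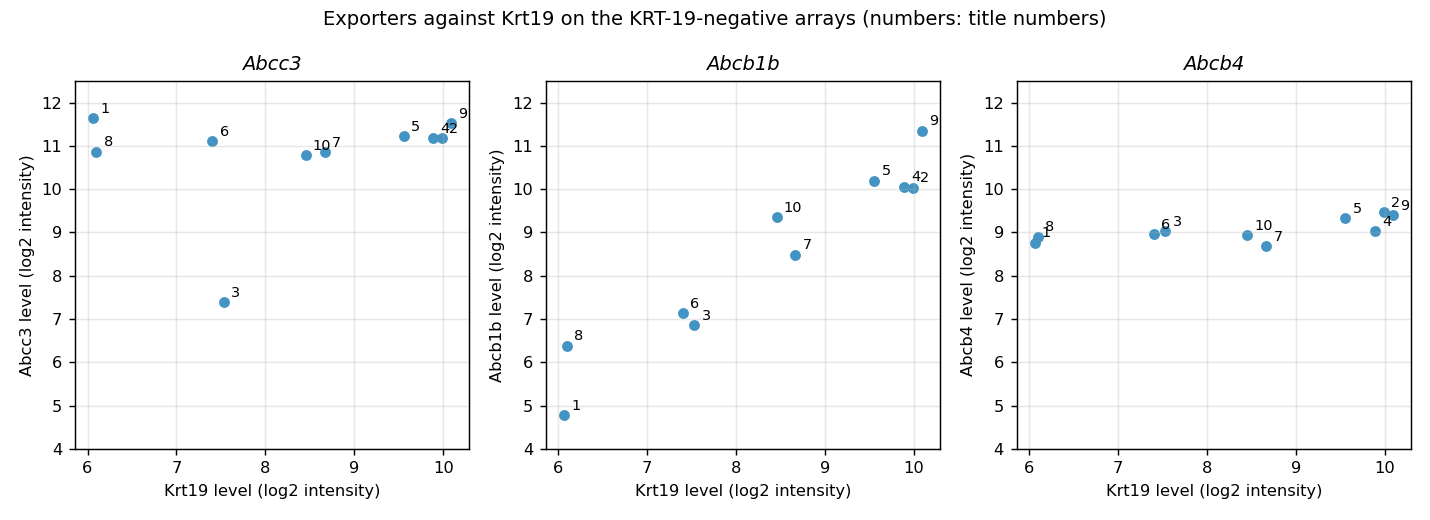
Levels (log2 intensity) of Abcc3, Abcb1b and Abcb4 against that of Krt19 on the 10 KRT-19-negative arrays, each marked with its title number. Abcb1b climbs with Krt19 (r = 0.96), whereas Abcc3 is between 10.78 and 11.64 on 9 arrays and at 7.39 on array 3.

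KRT-19-negative array 3 stood apart for Abcc3, at 7.39 against 10.78 on the next lowest array. Gstp1, a glutathione transferase used as a marker of rat preneoplastic nodules, was also lowest there, at 9.25 against 13.72 on the next lowest. Abcb1b (6.86) and Krt19 (7.53) on this array lay within the range of the other KRT-19-negative arrays. The correlation of Abcc3 with Gstp1 over KRT-19-negative arrays was r = 0.97 (permutation p adjusted to 0.0914) and rho = 0.59 (adjusted 0.260), and r was 0.31 without arrays 3 and 9, so it rests on these arrays.

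After 2 d of T3 no exporter passed the test against untreated KRT-19-positive nodules. Abcc3 differed by -0.41 (95% interval -1.29 to 0.46, limma adjusted p = 0.505), although all 10 T3 arrays were below the mean of the untreated ones. With the spread estimated from these 2 groups alone, the same difference passed (adjusted p = 0.00341), and with detected probes per array as a covariate it was 0.20. Abcb1b differed by 0.00 (95% interval -1.02 to 1.03, adjusted p = 0.9995) and Abcb4 by 0.21 (95% interval -0.09 to 0.50, adjusted p = 0.291). Under 11 other settings the difference of Abcb1b ranged from 0.00 to 0.71 and never passed. Thus 0 of 3 exporters were called, where 31.3% of all features were called and 4.08% did not overlap. At this time Krt19 fell by 1.58 (SE 0.38, adjusted p = 0.0011), at 10.25 ± 0.83 after 2 d of T3 and 11.82 ± 0.62 in untreated nodules (SD, n = 10 each). Macrophage markers had 5 of 7 lower and 1 higher, cholangiocyte markers 2 of 8 lower, and stellate cell and fibroblast markers 1 of 6 lower.

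After 4 d of T3 Abcc3 and Abcb1b fell and Abcb4 rose against untreated KRT-19-positive nodules. Abcc3 was 11.7-fold lower (-3.55 ± 0.44, limma adjusted p = 1.11e-09) without overlap of the groups. Abcb1b was 6.10-fold lower (-2.61 ± 0.51, adjusted p = 2.17e-05), and its highest T3 array, 11.77, reached the lowest untreated one, 11.75. Abcb4 was 1.56-fold higher (0.64 ± 0.15, adjusted p = 0.000228), with all 10 T3 arrays above the untreated mean and overlapping ranges. So 3 of 3 exporters were called, where 53.7% of all features were called, 26.6% lower and 27.1% higher, and 17.6% did not overlap. Markers of other cells moved as well. Stellate cell and fibroblast markers had 4 of 6 lower and 1 higher (sums of 3059 to 8119 after 4 d of T3 and 5875 to 12039 untreated), and macrophage markers 4 of 7 lower and 1 higher (5115 to 6807 after 4 d of T3 and 7613 to 16218 untreated). Cholangiocyte markers had 3 of 8 lower and 2 higher, lymphocyte markers 3 of 5 lower, and red blood cell markers 2 of 3 higher and 1 lower (17793 to 25904 after 4 d of T3 and 5291 to 13974 untreated). Among hepatocyte markers 2 of 7 were higher. The part of these cells was not tested.

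From 2 d to 4 d of T3 the same directions were seen. Abcc3 differed by -3.13 ± 0.44 (limma adjusted p = 4.45e-08, no overlap), Abcb1b by -2.61 ± 0.51 (adjusted p = 2.93e-05) and Abcb4 by 0.43 ± 0.15 (adjusted p = 0.0138). All 3 exporters were called, where 44.4% of all features were called, 22.1% lower and 22.4% higher, and 9.74% did not overlap. Because both times share the untreated nodules, these values are also the difference between the effects of T3 at 4 d and at 2 d. Stellate cell and fibroblast markers had 4 of 6 lower and 1 higher, and macrophage markers 4 of 7 lower and 1 higher. Cholangiocyte markers had 3 of 8 lower and 1 higher, lymphocyte markers 2 of 5 lower, and red blood cell markers 2 of 3 higher and 1 lower. Hepatocyte markers had 2 of 7 higher and 1 lower. The part of these cells was not tested.

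The 10 arrays after 4 d of T3 were not alike. Abcc3 was at 11.03, 10.92, 10.09 and 10.02 on arrays 1, 3, 8 and 9 and between 6.53 and 7.50 on the other 6, with an empty interval of 2.52 between them, and the lowest of these arrays reached the range of control liver. Abcb1b was highest on the same arrays, at 11.77, 11.66, 10.32 and 10.50, against at most 8.90 on the other 6. Gstp1 was highest on the same 4 arrays, at 12.95 to 14.50, against 9.36 to 10.56 on the other 6, and Krt19 too, at 8.21 to 8.77 against at most 7.94. Abcb4 was highest on arrays 3 (10.47) and 1 (10.05), and on arrays 8 and 9 it was at 9.57 and 9.71. The sum of the 6 stellate cell and fibroblast markers was also highest on these arrays, at 7609, 8119, 6022 and 4770 on arrays 1, 3, 8 and 9, against 3059 to 3695 on the others. So was the sum of the 7 macrophage markers, at 6807, 6602, 6013 and 5884, against at most 5662 on the others. The part of these cells was not tested. Since these arrays were noticed by their values, they are described array by array, without a test, and the group was left out of the correlations.

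**Figure D4:**
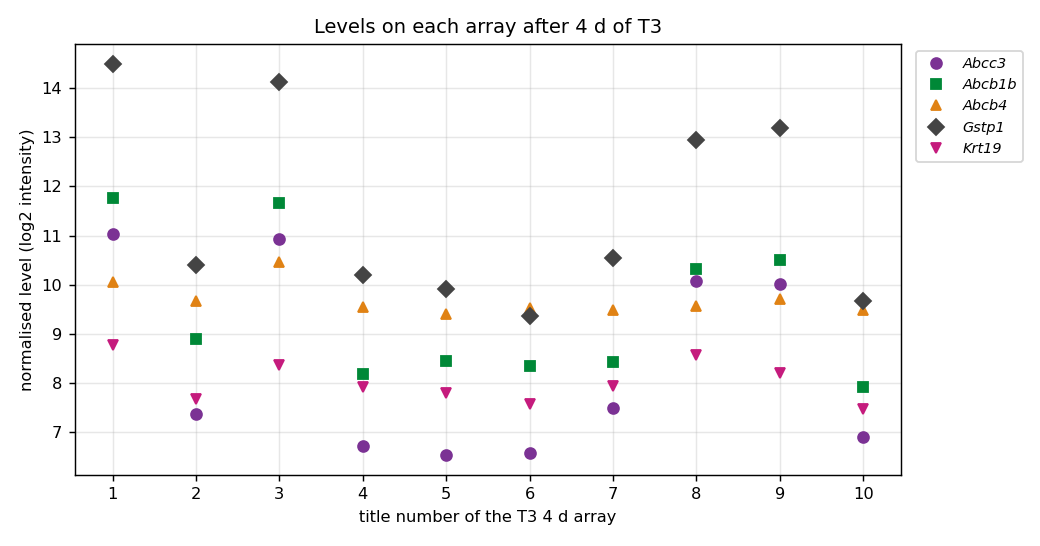
Normalised levels (log2 intensity) of the 3 exporters, Gstp1 and Krt19 on each array after 4 d of T3, by title number. Abcc3, Abcb1b, Gstp1 and Krt19 are all highest on arrays 1, 3, 8 and 9, and Abcb4 varies between 9.41 and 10.47.

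Nodules under T3 were also set against control liver. After 2 d of T3 Abcc3 was 36.7-fold higher (5.20 ± 0.46, limma adjusted p = 9.87e-14) and Abcb1b 52.0-fold higher (5.70 ± 0.54, adjusted p = 7.6e-13), without overlap for either, and Abcb4 did not pass (0.05, 95% interval -0.26 to 0.36, adjusted p = 0.825). Here 2 of 3 exporters were called, both higher, where 47.3% of all features were called, 24.8% higher and 22.6% lower, and 15.3% did not overlap. After 4 d of T3 Abcc3 remained 4.18-fold higher than in control liver (2.06 ± 0.46, adjusted p = 0.000242, overlapping), Abcb1b 8.51-fold higher (3.09 ± 0.54, adjusted p = 5.44e-06, no overlap) and Abcb4 1.39-fold higher (0.48 ± 0.16, adjusted p = 0.0104, overlapping). All 3 exporters were called, all higher, where 42.0% of all features were called, 21.7% higher and 20.3% lower, and 11.6% did not overlap. Without background correction Abcc3 differed by 4.00 and Abcb1b by 4.50 at 2 d, and by 1.41 and 2.13 at 4 d. At 2 d stellate cell and fibroblast markers had 5 of 6 higher and 1 lower, hepatocyte markers 3 of 7 higher and 3 lower, and macrophage markers 3 of 7 lower. Cholangiocyte markers had 3 of 8 higher and 1 lower, and red blood cell markers 2 of 3 lower and 1 higher. Endothelium markers had 2 of 4 higher and 1 lower, and lymphocyte markers 2 of 5 lower and 1 higher. At 4 d macrophage markers had 5 of 7 lower, stellate cell and fibroblast markers 2 of 6 higher, and cholangiocyte markers 3 of 8 higher. Lymphocyte markers had 2 of 5 lower, red blood cell markers 1 of 3 lower, hepatocyte markers 1 of 7 lower and endothelium markers 1 of 4 higher. The part of these cells was not tested.

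To compare the sinusoidal with the canalicular exporters within each array, the level of Abcc3 was taken relative to Abcb4 and to Abcb1b. These ratios were chosen after the data were seen, in place of Abcc2, and permutation p-values were adjusted over 16 comparisons. Such a ratio shows unequal change and not that either gene was constant. Abcc3 relative to Abcb4 was higher by 5.77 in KRT-19-positive nodules against control liver (adjusted exact permutation p = 0.00016) and by 4.64 in KRT-19-negative nodules against control liver (exact, adjusted p = 0.00016), without overlap. It was lower by 4.18 after 4 d of T3 than in untreated KRT-19-positive nodules (difference -4.18, adjusted permutation p = 0.00016, no overlap), and after 2 d it differed by -0.62 (adjusted permutation p = 0.0112, 8 of 10 arrays below the untreated mean). In KRT-19-positive against KRT-19-negative nodules it was higher by 1.13 (adjusted permutation p = 0.00064, overlapping). With 1 array left out this ratio difference ranged from 0.76 to 1.26 and still passed. Abcb4 differed by 0.01 there, so the value is close to that of Abcc3 alone, whose limma call did not hold in every setting. The ratio was not tested with detected probes per array as a covariate.

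Abcc3 relative to Abcb1b separated the nodule types, but in the other direction than Abcc3 relative to Abcb4. The difference of Abcc3 relative to Abcb1b was -2.46 in KRT-19-positive against KRT-19-negative nodules (adjusted permutation p = 0.00016, no overlap). Between KRT-19-positive nodules and control liver it differed by -0.09 (adjusted exact permutation p = 0.7), whereas KRT-19-negative nodules were 2.37 above control liver (adjusted exact permutation p = 0.00106, overlapping). Under T3 it was lower than in untreated KRT-19-positive nodules, with a difference of -0.41 at 2 d (adjusted permutation p = 0.0204) and of -0.94 at 4 d (adjusted permutation p = 0.000183).

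The genes whose mean differences from control liver in the 4 nodule groups came closest to those of Abcc3, among 8216 named genes, were Akr7a3 (root mean square distance 0.37 log2), an aldo-keto reductase that detoxifies aflatoxin aldehyde, Gpx2 (0.52), a glutathione peroxidase, and Car2 (0.57), a carbonic anhydrase. For Abcb1b they were Mmp12 (0.76), a macrophage metalloelastase, Ugt1a6 (0.83), a glucuronosyltransferase, and Pcp4 (0.92), a calmodulin-binding peptide. The closest patterns to Abcb4 were those of Acss3 (0.03), Mrpl4 (0.04) and Tmbim4 (0.05). Within a distance of 1 log2 lay 7 features for Abcc3 and 5 for Abcb1b, but 10524 for Abcb4, whose flat pattern most features share.

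Of 8 genes listed as other canalicular transporters, 4 were tested. One of them is Abcb6, whose place in the canalicular membrane was not tested. In KRT-19-positive nodules against control liver 2 were higher and 1 lower, where 24.8% of all features were higher and 23.9% lower. Abcg5, part of the sterol exporter, was higher (1.27), as was the porphyrin transporter Abcb6 (0.52), and the drug and urate exporter Abcg2 was lower (-0.76). Against untreated KRT-19-positive nodules, 4 d of T3 gave a further rise of Abcg5 (2.45) to 11.38 ± 0.12, against 8.93 ± 0.86 in untreated and 7.67 ± 0.60 in control samples, and Abcg2 rose by 0.58. The phospholipid flippase Atp8b1 fell by 1.44 (difference -1.44), at 6.31 ± 0.63 after 4 d of T3 and 7.76 ± 0.35 untreated. Thus Abcg5 and Abcb4 rose after 4 d of T3 while Abcb1b fell, and the genes listed for the canalicular membrane did not move one way. The median over these 4 genes was 0.24, beside 0.00 over all features.

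Of 9 genes listed as other sinusoidal or basolateral exporters 5 were tested, among them Abcc9, a potassium channel subunit and not an exporter. In KRT-19-positive nodules against control liver 3 of the 5 were lower, Abcc9 included, and 1 was higher, beside 23.9% and 24.8% of all features. Abcc6, an ATP-release transporter of hepatocytes, differed by -1.70, Abcc9, a potassium channel subunit of the same family, by -1.13, and the cholesterol exporter Abca1 by -0.69. Abcc5, which carries cyclic nucleotides, was higher (0.57). The median was -0.69, beside -0.03 over all features. Under 4 d of T3, against untreated KRT-19-positive nodules, Abcc6 (0.51) and Abca1 (0.42) were higher and Abcc9 lower (-0.34).

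Sinusoidal uptake carriers, which bring bile acids and organic anions into hepatocytes, differed in the other direction from Abcc3. Compared with control liver, KRT-19-positive nodules had lower levels of all 7 tested of 13 listed (23.9% of all features were called lower), with a median of -1.42. Slco1a5, 1 of the 7, was near background, above it on 5 of 10 KRT-19-positive and 7 of 8 control arrays. Hepatocyte markers had 3 of 7 lower and 1 higher in the same comparison, among them Fgb, a fibrinogen chain, at 14.47 ± 0.26 in KRT-19-positive nodules and 15.01 ± 0.07 in control liver (SD, n = 10 and 8), and their part was not tested. The organic anion carriers Slc22a8 (-2.61), Slco1b2 (-2.07), Slc22a7 (-1.60) and Slco2b1 (-1.42) had the largest falls. In KRT-19-negative nodules 3 of the 7 were lower than in control liver, where 10.7% of features were, with Slc22a8 (-1.16), Slc22a7 (-0.78) and Slco1b2 (-0.65). After 4 d of T3 against untreated KRT-19-positive nodules 6 of 7 were higher (27.1% of features), with a median of 1.13 beside 0.00 over all features. These included the carnitine carrier Slc22a5 (2.51), Slc22a7 (1.93) and the bile acid carrier Slc10a1, which reached 13.93 ± 0.21 after 4 d of T3, against 12.43 ± 0.34 in untreated nodules and 13.79 ± 0.17 in control liver. Values against control liver and after T3 share the untreated KRT-19-positive arrays. When nodules after 4 d of T3 were set against control liver, 4 of the 7 were lower and 2 higher, with a median of -0.44. Of all features 20.3% were lower and 21.7% higher there. Slco1b2, among those that stayed below, was at 12.18 ± 0.19 after 4 d of T3 and 13.16 ± 0.27 in control liver. At 2 d of T3, 3 of 7 were higher and none lower than in untreated nodules, where 15.8% of features were higher and 15.5% lower.

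**Figure D5:**
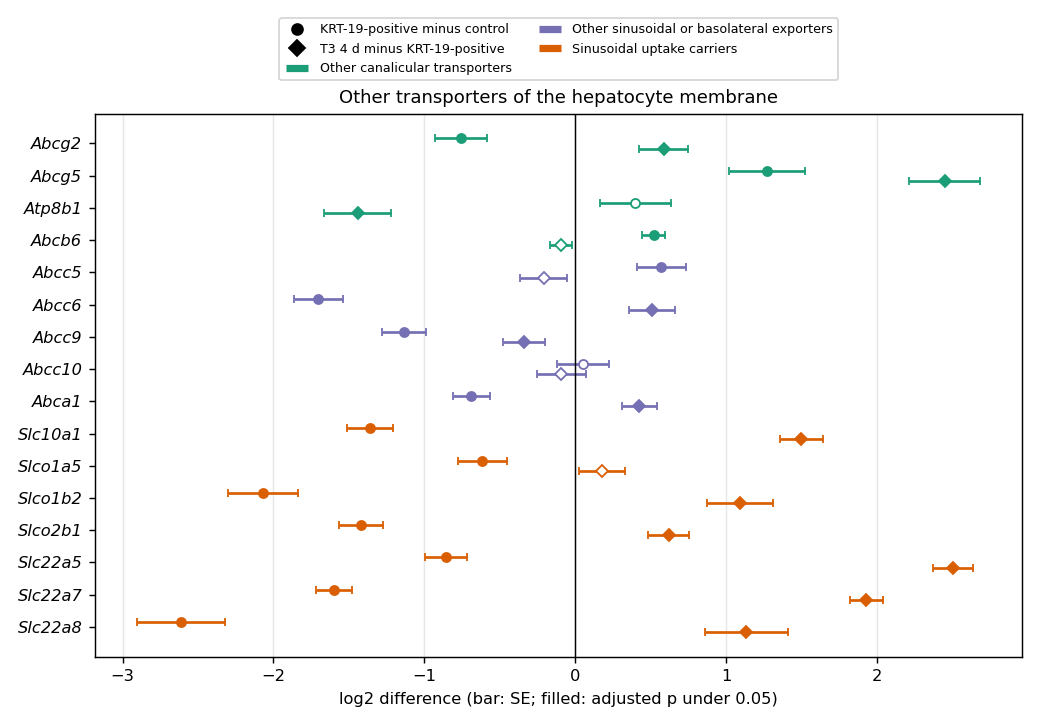
Log2 differences (± SE) of 16 other genes of the transporter lists in KRT-19-positive nodules minus control liver (circles) and in T3 4 d minus untreated KRT-19-positive nodules (diamonds), with filled symbols for adjusted p under 0.05. The 7 uptake carriers all lie below 0 in the nodules and above 0 after T3, 6 of them past the threshold there.

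Genes of the canalicular membrane scaffold and its traffic were mixed, with 3 of 11 tested (15 listed) higher and 3 lower when KRT-19-positive nodules were compared with control liver, close to the 24.8% and 23.9% of all features. Ezr, which ties apical membranes to actin, was higher (2.27), as was Myo5b (2.12), the motor of apical recycling vesicles. The canalicular peptidase Anpep (-0.84) and the scaffold Nherf1 (-0.60) were lower. After 4 d of T3 against untreated KRT-19-positive nodules Myo5b (-2.13) and Ezr (-1.31) were lower, and the canalicular glycoprotein Ceacam1 (0.90) and Anpep (0.79) were higher. Ceacam1 was near background, above it on 2 of 10 untreated KRT-19-positive arrays and on 10 of 10 after 4 d of T3.

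Of 16 nuclear receptors and other factors known to regulate exporters, 15 were tested. In KRT-19-positive nodules against control liver 7 were lower and 2 higher, where 23.9% of all features were lower and 24.8% higher. The bile acid receptor gene Nr1h4 (-1.57), its partner Rxra (-1.14) and the thyroid hormone receptor gene Thrb (-0.95) were lower. The xenobiotic receptor gene Nr1i3 (0.78) and Nfe2l2 (0.42), which encodes the antioxidant regulator NRF2, were higher. In KRT-19-positive against KRT-19-negative nodules Nfe2l2 was the only one of the 15 called higher (0.49), and 6 were lower, where 17.3% of features were higher and 14.7% lower. After 4 d of T3 against untreated KRT-19-positive nodules 7 were higher and 3 lower (27.1% and 26.6% of features), with Foxa2 (1.13) and Rxra (0.98) among the higher and Nfe2l2 (-0.98) and Nr1i3 (-0.90) among the lower. These are RNA levels and not activities of the factors.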

How the data were processed

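Illumina bead arrays were used for 48 rat liver RNA samples. The deposited non-normalised table gives, per the file headers, an intensity and a detection p-value for each probe on each array. BeadStudio 3.0.19.0 is named in the submitters' processing notes. The authors' value table holds intensity values that were quantile normalised, as read from the values (sorted values within 2.04% of their mean over arrays), and serves as an alternative. The authors' genome build is not given in the sources used here. Of 22523 probes, 13793 carried 1 gene symbol and 8730 none, and 13752 of the named ones matched the RefSeq gene table by gene ID.

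Background correction (normexp from the detection p-values), quantile normalisation and log2 with an offset of 16 were done with neqc of limma 3.58.1 in R 4.3.3. Kept were 11723 probes whose detection p-value was under 0.05 on 8 arrays or more, the brightest kept probe per gene was used, and 11558 features were tested with lmFit and eBayes over 5 groups. P-values were adjusted by Benjamini-Hochberg over all features of a comparison, and called under 0.05. Intervals are 95%. The planned ratio of Abcc3 to Abcc2 could not be computed, as no probe carries Abcc2. Permutation tests (Python 3.11.15, scipy 1.17.1) were two-sided, exact where a group has 8 arrays and otherwise with 100000 resamples. The limma fit was tested on simulated data with independent normal values and the same spread in every group. The permutation tests and correlations were not tested in this way. Precision is limited by how many arrays a group has.

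The members and gene lists were chosen with earlier results of these data known. Besides the members, up to 4 called genes per list and comparison with the largest difference are named, with those that go against their list, the 3 genes most alike in pattern per member, and Krt19 and Gstp1 as checks of the labels. Alternatives were the background correction, the offset, the authors' values, filters, the samples in the fit, blocks, a covariate and leaving out each array.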

Additional observations from a re-analysis of the deposited data

Results flagged for a closer look

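In KRT-19-negative array 3 Abcc3 was at 7.39, far below the next lowest array at 10.78, with a gap of 0.80 of the whole range of the group. It was 1 of 15 groups of exporter values tested in which an array stood apart in this way, and chance gives about 1 in 20. The effect of T3 on KRT-19-positive nodules differed between 4 d and 2 d for each exporter, by -3.13 for Abcc3, by -2.61 for Abcb1b and by 0.43 for Abcb4 (log2, the limma difference of the 2 times, adjusted p as in the report).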

How the results depend on the processing

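Of 264 values of the exporters' differences under other settings, 261 stayed on their side of the threshold, as did 450 of 456 with 1 array left out. No difference that passed changed sign. Differences that did not pass changed sign for Abcc3 at 2 d of T3 against untreated nodules (0.20 with detected probes as a covariate), and, with 1 array left out, for Abcb1b there (-0.11 to 0.11), Abcb4 in KRT-19-positive against KRT-19-negative nodules (-0.08 to 0.08, and -0.02 with the covariate) and Abcb4 at 2 d against control liver (-0.02 to 0.10). Abcc3 in KRT-19-positive against KRT-19-negative nodules no longer passed without a filter on dim probes (1.14, adjusted p = 0.0569) or with detected probes per array as a covariate (0.42), and ranged from 0.76 to 1.23 with 1 array left out. Abcc3 after 2 d of T3 against untreated nodules passed when only the compared groups were fitted (-0.41). In that kind of fit 1686 features, in place of 2534, were called in KRT-19-negative nodules against control liver.

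For the ratios, chosen after the data were seen, Abcc3 relative to Abcb4 after 4 d of T3 against control liver (1.59) no longer passed without background correction (1.00), with the authors' values (1.00) or with the replicate block (1.54). Abcc3 relative to Abcb1b after 4 d against 2 d of T3 (-0.52, adjusted permutation p = 0.0369) no longer passed without background correction (-0.22), with offset 50 (-0.39), with the authors' values (-0.22) or without any 1 of 8 arrays (range -0.62 to -0.43). After 2 d of T3 against control liver it (-0.50) passed without background correction (-0.50), with offset 50 (-0.50), with the authors' values (-0.50), and without control array 1 or 2 (range -0.65 to -0.39). Against untreated nodules at 2 d it missed the threshold with the replicate block (-0.41). The causes were not tested.

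Title numbers were not taken to pair the samples. Nothing in the labels ties same-numbered samples, the descriptions give all samples of a group the same replicate number, and deviations of same-numbered arrays correlated at -0.43 to 0.34. The correlation was over 0.1 for 7 of 10 numbers between 2 d and 4 d of T3 and for 5 of 8 between KRT-19-negative nodules and control liver, and for at most 2 numbers in the other pairs of groups. The replicate block changed no call of the exporters' own differences (Abcc3 in KRT-19-positive nodules against control liver 5.57), nor did earlier and later title numbers as a block. Levels near background limit the folds against control liver: without background correction or with the authors' values the differences of Abcc3 and Abcb1b in KRT-19-positive nodules were 4.40 and 4.50.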
